A study of Mus musculus with 6 samples.

Results

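The genes described here encode ion channels that open to heat, ligands, acid, hyperpolarisation, cyclic nucleotides, calcium or membrane stretch. They were taken by gene symbol: the TRP channels of the A, C, M and V groups, the acid-sensing Asic channels, the hyperpolarisation-activated Hcn channels, the cyclic nucleotide-gated Cng channels, Piezo, Tmc, Tmem63, the anoctamins (Ano) and the polycystins (Pkd1 and Pkd2 types). The rule took 55 genes of 18193 with a probe set of their own, and these 55 had 84 probe sets. It matches the start of the symbol, so it also took Trpc4ap, the gene of a protein that associates with a TRPC channel and is no channel itself. A further 14 symbols of the mouse RefSeq table fit the rule and are not analysed here.

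The carotid body lies where the common carotid artery divides, and its glomus cells sense low oxygen, carbon dioxide and acid in arterial blood. The adrenal medulla is the core of the adrenal gland, and its chromaffin cells release adrenaline and noradrenaline. Expression was measured on 6 Affymetrix arrays, 3 of carotid body and 3 of adrenal medulla, from untreated adult C57/BL6 mice with no transgene or mutation named. Each carotid body array held a pool of 18 carotid bodies and each adrenal medulla array a pool of 10 medullas, both from 10 mice, and arrays with the same number came from 1 cohort of animals. Values are log2 intensities, differences are carotid body minus adrenal medulla on that scale, and a level of 1 probe set cannot be set against that of another.

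TRP channels are cation channels with 4 subunits round a pore, and among them are sensors of heat, cold, irritants, osmotic swelling and lipid products of phospholipase C. Acid-sensing channels pass sodium when protons bind outside the cell, and in rat glomus cells they have been put forward as acid sensors. Piezo and Tmem63 channels open when the membrane is stretched, and Tmc1 and Tmc2 belong to the transduction channel of inner ear hair cells. Anoctamins are calcium-activated chloride channels or lipid scramblases. Hcn channels carry the pacemaker current of rhythmic neurons and heart cells.

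The pools differed in more than their channels. All 7 fibroblast, 7 of 7 smooth muscle and pericyte and 5 of 6 Schwann and satellite glia markers were higher in carotid body, at an adjusted p under 0.05 and at least 2-fold (limma, adjusted over all probe sets), the rule used for every call below. The 4 glomus cell markers were higher in carotid body, 1 of which, Rgs5, is also counted among the smooth muscle and pericyte markers. Of 7 catecholamine cell markers, 5 were lower in carotid body, and 7 of 8 adrenal cortex markers were also lower. The summed intensity of the cortex markers was 23051, 747 and 657 in carotid body arrays 1, 2 and 3, against 58398 to 79034 in adrenal medulla. Star, the cholesterol carrier of steroid cells, had 12.06, 3.85 and 3.81 in carotid body, against 13.92, 13.95 and 13.52 in adrenal medulla, so carotid body array 1 lay nearer to adrenal medulla than to the other carotid body arrays. Pnmt, the enzyme that makes adrenaline in chromaffin cells, had 11.13, 7.65 and 8.08 in carotid body, against 13.17, 13.84 and 13.70 in adrenal medulla, so array 1 stood apart in this medullary marker as well. Xist, transcribed from the inactive X chromosome, had 10.96, 8.84 and 9.82 in carotid body, against 4.45 to 5.60 in adrenal medulla. The 3′ minus 5′ difference of the Gapdh control probe sets, a sign of RNA integrity, came to 1.45, 1.04 and 0.59 in carotid body, against 0.13 to 0.61 in adrenal medulla. Carotid body array 1 was thus also the highest of its tissue in Xist and in this Gapdh difference. The part of cell makeup, sex and RNA quality in the differences below was not tested.

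Most of these channel genes were not called. Of 55 genes, 2 were higher in carotid body, Trpm3 and Tmc7, and 4 were lower, Asic4, Tmc4, Asic2 and Ano4, which left 49 not called. The 6 called are 10.9% of the channel genes, and 12.0% of all 18193 genes were called, 5.91% higher and 6.08% lower in carotid body. At an adjusted p under 0.05 with no minimum fold, Trpv4, Trpc2 and Piezo1 were also higher in carotid body and Trpm4 was also lower, 10 genes or 18.2%, against 27.4% of all genes. The median difference was -0.03 over the channel genes and -0.04 over all genes, and the median size of a difference was 0.17 over the channel genes and 0.26 over all genes. The values of the tissues did not overlap for 17 channel genes or 30.9%, with carotid body above for 9 and below for 8. Over all genes the share was 43.9%, 17.8% above and 26.1% below. In whole organs, fewer cells of a type and less RNA per cell cannot be told apart.

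**Figure D1:**
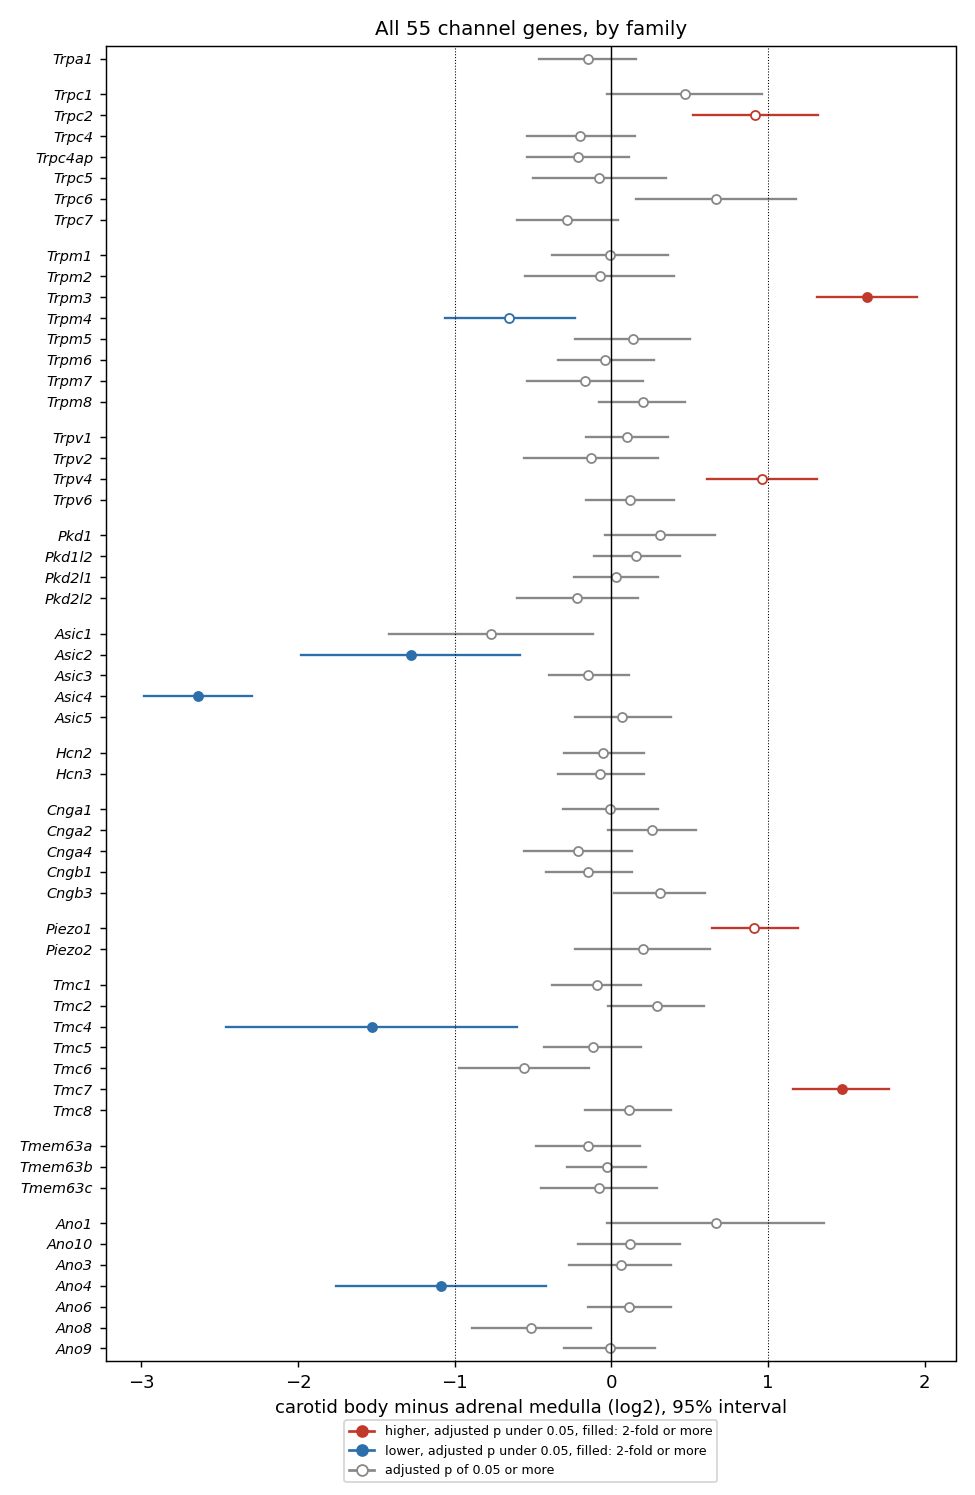
Difference of each of the 55 channel genes, carotid body minus adrenal medulla on the log2 scale, with its 95% interval, grouped by family. Dotted lines mark 2-fold; Trpm3 at 1.63 and Tmc7 at 1.47 lie beyond the upper line, and Asic4 at -2.64, Tmc4 at -1.53, Asic2 at -1.28 and Ano4 at -1.09 beyond the lower line.

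Among 8 TRPM genes, Trpm3 was higher in carotid body. TRPM3 is a calcium-permeable channel that opens to heat and to the neurosteroid pregnenolone sulphate, and it serves heat sensing in mouse sensory neurons. Trpm3 had 6.35, 6.78 and 6.49 in carotid body arrays 1, 2 and 3, against 4.86, 4.97 and 4.91 in adrenal medulla. The lowest carotid body value stood above the highest adrenal medulla value by more than the whole range of either tissue. Carotid body averaged 6.54 ± 0.22 and adrenal medulla 4.91 ± 0.05 (SD, n = 3 each), a difference of 1.63 ± 0.14 (SE; limma adjusted p = 0.000264), or 3.09-fold. Leaving out any 1 array gave differences of 1.51 to 1.72. Of its 6 probe sets this brightest one was called; the others gave -0.11 to 0.68, with an adjusted p of 0.0215 for the one at 0.46. Averaged over its probe sets, Trpm3 differed by 0.54 (limma adjusted p = 0.00384), under 2-fold.

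RefSeq gives Trpm3 a pair of start sites in GRCm38.p6, and the window of the upstream one is shown because Trpm3 is the channel gene with the largest difference toward carotid body. It runs from 250 bases before the start to 50 after it, at chr19:22138796-22139095 on the + strand. Capitals mark a CCAAT box match, the letters CCAAT on either strand, 67 bases before the start. Such boxes were present in 37.4% of 32851 RefSeq windows of this length.
Trpm3 promoter: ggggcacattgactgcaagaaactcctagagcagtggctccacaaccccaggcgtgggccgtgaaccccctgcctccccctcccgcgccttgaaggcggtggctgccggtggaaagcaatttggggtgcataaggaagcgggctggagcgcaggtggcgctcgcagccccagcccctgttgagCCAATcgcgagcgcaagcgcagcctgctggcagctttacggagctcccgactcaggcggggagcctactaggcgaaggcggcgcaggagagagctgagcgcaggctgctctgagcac
The window of the other start, at chr19:22447958-22448257, held no match to any motif searched here.

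**Figure D2:**
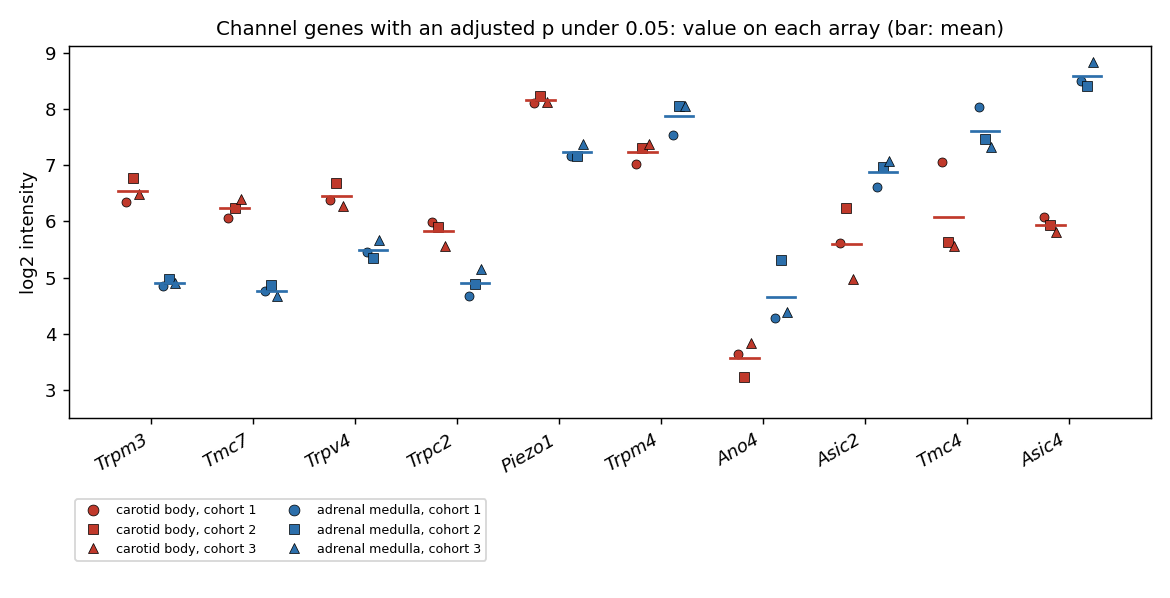
Log2 intensity of the 10 channel genes with an adjusted p under 0.05 on each array, carotid body in red left of adrenal medulla in blue, with cohort by symbol and the mean as a bar. The tissues do not overlap for any of the 10, and Tmc4 in carotid body lies at 7.05 on array 1 against 5.63 and 5.57 on the others.

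Trpm4, a calcium-activated channel that passes sodium and potassium and depolarises the cell, was lower in carotid body by less than 2-fold. It had 7.02, 7.30 and 7.38 in carotid body, against 7.54, 8.05 and 8.06 in adrenal medulla. All 3 carotid body values lay below all 3 adrenal medulla values, with the gap between the nearest pair at under 1 SD of adrenal medulla. The difference was -0.65 ± 0.18 (SE; limma adjusted p = 0.0349), and the adjusted p was 0.0909 and 0.0788 without carotid body array 1 or 2 and 0.133 and 0.124 without adrenal medulla array 2 or 3. After quantile normalization it was -0.51, with an adjusted p of 0.0522.

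Trpm7 joins a magnesium- and calcium-permeable channel to a protein kinase. Its brightest probe set had 9.83, 9.46 and 10.03 in carotid body, against 9.96, 9.89 and 9.99 in adrenal medulla, which overlapped. The difference was -0.17, with a 95% interval of -0.54 to 0.20 (limma adjusted p = 0.51). Its 4 probe sets disagreed. Besides the brightest, 2 more gave -0.08 and -0.41, but the remaining probe set, with the suffix _s_at, had 8.07, 7.46 and 7.46 in carotid body, against 6.05, 5.26 and 5.68 in adrenal medulla. On that probe set the tissues did not overlap, and carotid body was higher by 2.00 ± 0.24 (SE; limma adjusted p = 0.00128). That suffix marks a probe set that can match several transcripts. It was noticed after its values were seen.

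The Trpm7 promoter is shown beside this split between probe sets. The window lies at chr2:126876212-126876511 on the - strand, and capitals mark 2 matches to the palindromic E-box CACGTG, 25 bases before and 17 bases after the start. Each CACGTG also holds the hypoxia response core ACGTG on both strands. CACGTG was found in 7.15% and ACGTG in 19.6% of all windows.
Trpm7 promoter: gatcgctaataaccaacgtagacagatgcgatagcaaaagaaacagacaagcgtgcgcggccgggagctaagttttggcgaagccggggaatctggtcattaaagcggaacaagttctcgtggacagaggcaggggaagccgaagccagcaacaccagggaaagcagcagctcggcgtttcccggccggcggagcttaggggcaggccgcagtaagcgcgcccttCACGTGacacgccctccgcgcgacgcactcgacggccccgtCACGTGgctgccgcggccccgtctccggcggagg

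**Figure D3:**
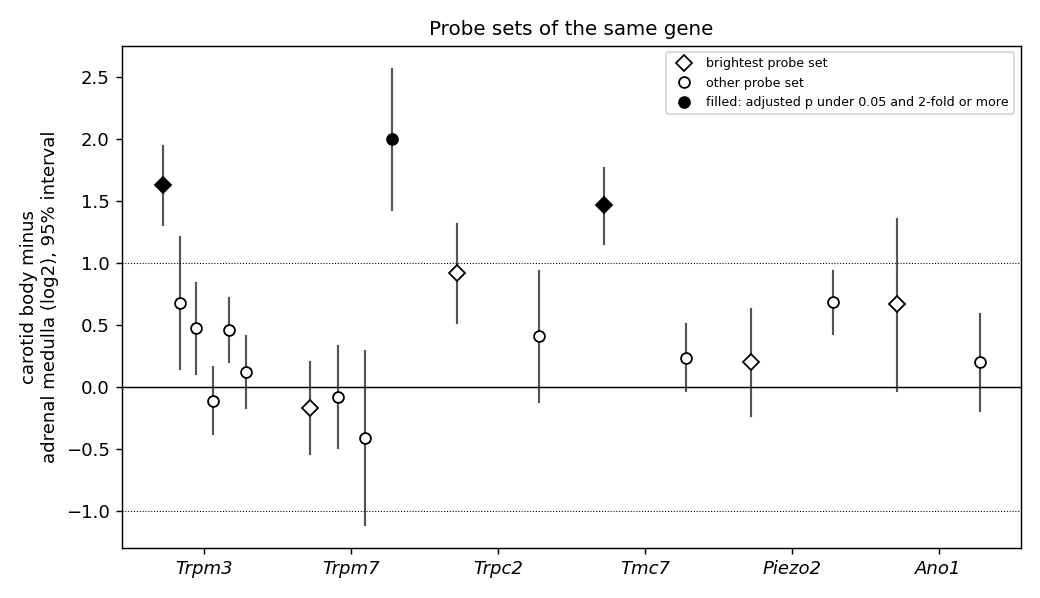
Difference of each probe set of 6 channel genes, carotid body minus adrenal medulla (log2) with 95% intervals; diamonds are the brightest probe sets and filled symbols are called. Trpm7 has 3 probe sets at -0.41 to -0.08 and 1 at 2.00, and Trpm3 has 1 called of 6.

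The other TRPM genes gave small differences. Trpm2, which opens to ADP-ribose under oxidative stress, had 7.54, 7.82 and 8.06 in carotid body, against 7.51, 7.99 and 8.15 in adrenal medulla. The tissues overlapped, and the difference was -0.07 (95% interval -0.55 to 0.40). Trpm8, the cold and menthol sensor, had 3.27, 3.47 and 3.28 in carotid body, against 3.23, 3.15 and 3.05 in adrenal medulla, values near the bottom of the scale (difference 0.20, limma adjusted p = 0.286). Trpm1, Trpm5 and Trpm6 differed by -0.04 to 0.14.

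Of the 4 TRPV genes, Trpv4 was higher in carotid body by just under 2-fold. TRPV4 responds to osmotic swelling and warmth and is known in endothelium and epithelium. It had 6.38, 6.68 and 6.28 in carotid body, against 5.45, 5.35 and 5.67 in adrenal medulla, with no overlap. The difference was 0.96 ± 0.15 (SE; limma adjusted p = 0.00366), past 2-fold without carotid body array 3, at 1.04, and at 1.05 with adrenal medulla array 3 left out. Without cohort 2 the adjusted p was 0.0608. Endothelium markers were higher in carotid body for 2 of 6 genes, and for 4 of 6 at an adjusted p under 0.05 with no minimum fold. They summed to intensities of 4290 to 4778 in carotid body, against 1859 to 2399 in adrenal medulla. Cldn5 weighed most in the carotid body sums, with 10.64, 10.84 and 10.68, against 7.08, 6.49 and 6.69 in adrenal medulla. Kdr and Tek differed by 0.33 and 0.12 and were not past the test. The part of these markers in the Trpv4 difference was not tested.

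Trpv1, the capsaicin receptor of pain neurons, had 3.59, 3.55 and 3.70 in carotid body, against 3.62, 3.44 and 3.49 in adrenal medulla. Trpa1, the receptor for mustard oil and other irritants, had 4.96, 4.95 and 4.79 in carotid body, against 5.09, 5.20 and 4.85 in adrenal medulla. Neither was separated by tissue, with differences of 0.10 for Trpv1 (95% interval -0.16 to 0.36) and -0.15 for Trpa1 (-0.46 to 0.16). Trpv2, found in neurons and macrophages, had 7.33, 7.60 and 7.39 in carotid body, against 7.19, 7.70 and 7.82 in adrenal medulla. It overlapped with a difference of -0.13, and Trpv6, a calcium-selective channel of epithelia, differed by 0.12.

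TRPC channels are opened downstream of phospholipase C. Of 7 genes with a Trpc symbol, Trpc2, which serves pheromone detection in the mouse vomeronasal organ, was higher in carotid body by less than 2-fold. Trpc2 had 5.99, 5.91 and 5.57 in carotid body, against 4.67, 4.88 and 5.15 in adrenal medulla. These did not overlap, the difference was 0.92 ± 0.17 (SE; limma adjusted p = 0.00737), and leaving out array 3 of either tissue gave 1.05, past 2-fold. Without cohort 2 the adjusted p was 0.118. Its other probe set gave 0.41 (limma adjusted p = 0.251).

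Trpc6, a diacylglycerol-activated channel of smooth muscle, had 4.29, 4.12 and 4.95 in carotid body, against 3.66, 3.75 and 3.94 in adrenal medulla. The tissues did not overlap, and the difference of 0.67 ± 0.22 (SE) had a limma adjusted p of 0.0632. With the cohort as a replicate block the adjusted p was 0.0267, and without carotid body array 2 it was 0.0466. It was 0.12 after quantile normalization and 0.124 with arrays centred on their median. Without adrenal medulla arrays 1, 2 and 3 in turn it was 0.162, 0.174 and 0.106. Trpc6 was dim, with a mean over the 6 arrays of 4.12, below the median of all probe sets, 5.28. Smooth muscle and pericyte markers summed to 37856 to 42743 in carotid body, against 5994 to 8876 in adrenal medulla. Rgs5, also counted as a glomus cell marker, weighed most in these sums. It had 14.57, 14.57 and 14.36 in carotid body, against 11.53, 12.52 and 12.37 in adrenal medulla. All 7 of these markers were called higher in carotid body, and their part in the Trpc6 difference was not tested. Trpc1, a subunit that joins other TRPC channels, had 7.92, 8.12 and 8.32 in carotid body, against 7.21, 7.78 and 7.97 in adrenal medulla, a difference of 0.47 with an interval of -0.03 to 0.96.

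Trpc4 and Trpc5, close relatives that form channels with Trpc1, overlapped between tissues. Trpc4 had 4.89, 4.48 and 4.71 in carotid body, against 5.08, 4.83 and 4.76 in adrenal medulla. Trpc5 had 7.05, 6.43 and 6.59 in carotid body, against 6.69, 6.95 and 6.66 in adrenal medulla. Their differences were -0.20 and -0.08, neither past the test. Trpc4ap had 8.89, 9.10 and 8.88 in carotid body, against 9.27, 9.30 and 8.95 in adrenal medulla, and differed by -0.21. Trpc7, which diacylglycerol opens, differed by -0.28, and neither passed the test.

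The acid-sensing family held the largest difference of the whole set, and it was toward adrenal medulla. Asic4 encodes a member that forms no proton-gated channel alone. It had 6.08, 5.94 and 5.81 in carotid body, against 8.5, 8.40 and 8.84 in adrenal medulla. Every carotid body array was more than 2 log2 units below every adrenal medulla array. Carotid body averaged 5.94 ± 0.14 and adrenal medulla 8.58 ± 0.23 (SD, n = 3 each), a difference of -2.64 ± 0.15 (SE; limma adjusted p = 4.89e-05), or 6.21-fold lower in carotid body. Leaving out any 1 array gave -2.72 to -2.51. Without carotid body array 1, the highest of its tissue in cortex markers, Pnmt, Xist and the Gapdh control difference, Asic4 differed by -2.70.

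Asic2, a subunit that pairs with other family members and is also linked to mechanosensation in mouse, was lower in carotid body. It had 5.61, 6.24 and 4.97 in carotid body, against 6.61, 6.97 and 7.07 in adrenal medulla. The carotid body arrays spread widely, with array 3 lowest, but none reached the adrenal medulla values. The difference was -1.28 ± 0.30 (SE; limma adjusted p = 0.0194). It was -0.96, under 2-fold, without carotid body array 3, and the adjusted p was 0.0756 without adrenal medulla array 2 and 0.0739 without array 3.

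RefSeq gives Asic2 a pair of starts as well, and the window of the one farther upstream, at chr11:81968347-81968646 on the - strand, is shown as an example of a gene lower in carotid body. Capitals mark a CCAAT box match 93 bases before the start and 2 overlapping matches to TATAAA, 25 and 29 bases after it. TATAAA was found in 13.6% of all windows.
Asic2 promoter: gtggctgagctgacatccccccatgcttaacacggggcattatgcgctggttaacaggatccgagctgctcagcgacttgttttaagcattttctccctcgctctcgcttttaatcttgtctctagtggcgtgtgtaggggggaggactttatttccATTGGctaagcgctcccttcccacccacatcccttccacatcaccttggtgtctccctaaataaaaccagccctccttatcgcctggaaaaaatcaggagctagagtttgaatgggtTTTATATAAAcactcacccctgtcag
The other Asic2 window, at chr11:81152854-81153153, held no match to the motifs.

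Asic1, a main subunit of proton-gated currents in neurons, overlapped between tissues. It had 5.89, 4.77 and 5.31 in carotid body, against 5.79, 6.23 and 6.26 in adrenal medulla, and carotid body array 1 lay within the adrenal medulla range. The difference was -0.77 ± 0.28 (SE; limma adjusted p = 0.0891), and without carotid body array 1 it was -1.06 with an adjusted p of 0.0167. That array was the highest of its tissue in cortex markers, Pnmt, Xist and the Gapdh control difference. Asic3, the acid sensor of muscle and pain afferents, had 3.45, 3.35 and 3.47 in carotid body, against 3.49, 3.66 and 3.57 in adrenal medulla. Those values lay near the bottom of the scale, and the difference of -0.15 was not past the test. Asic5, which is activated by bile acids, differed by 0.07. None of the 5 family members was called higher in carotid body, 2 were called lower and 3 were not called. Over all genes, 5.91% were called higher and 6.08% lower.

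Neither Piezo gene was called at 2-fold. Piezo1, the channel by which endothelium senses flow, had 8.10, 8.23 and 8.13 in carotid body, against 7.16, 7.16 and 7.38 in adrenal medulla. The arrays of each tissue lay close together and the tissues did not overlap. The difference was 0.91 ± 0.12 (SE; limma adjusted p = 0.00157), or 1.89-fold. Quantile normalization took it to 1.04, past 2-fold, and centring the arrays on their median took it to 0.80. Piezo2, the channel of touch and of baroreceptor afferents in mouse, had 6.0, 5.73 and 5.33 in carotid body, against 5.63, 5.37 and 5.45 in adrenal medulla. The brighter probe set overlapped, at 0.20 (95% interval -0.23 to 0.63), while the dimmer one had 4.46, 4.53 and 4.33 in carotid body, against 3.81, 3.73 and 3.73 in adrenal medulla. That dimmer probe set did not overlap and was higher in carotid body by 0.69 (limma adjusted p = 0.00418), and the mean of both gave 0.44 (limma adjusted p = 0.0367).

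Tmem63a and Tmem63b, both channels opened by stretch or osmotic change, gave nearly the same values in both organs. Tmem63a had 8.65, 8.53 and 8.41 in carotid body, against 8.91, 8.53 and 8.59 in adrenal medulla, and Tmem63b had 7.56, 7.57 and 7.60 in carotid body, against 7.53, 7.60 and 7.68 in adrenal medulla. The differences were -0.15 for Tmem63a (95% interval -0.48 to 0.18) and -0.03 for Tmem63b (-0.28 to 0.22), and that of Tmem63c was -0.08.

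In the Tmc family, Tmc7 was higher and Tmc4 lower in carotid body. Tmc7 had 6.07, 6.24 and 6.40 in carotid body, against 4.77, 4.87 and 4.67 in adrenal medulla, with more than 1 log2 unit between the nearest arrays. Carotid body averaged 6.24 ± 0.17 and adrenal medulla 4.77 ± 0.10 (SD, n = 3 each), a difference of 1.47 ± 0.13 (SE; limma adjusted p = 0.000313), or 2.76-fold, and 1.38 to 1.55 without any 1 array. The other probe set of Tmc7 gave 0.24, and the mean of both gave 0.85 (limma adjusted p = 0.000702), under 2-fold.

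The Tmc7 promoter is shown as that of the other gene higher in carotid body. The window lies at chr7:118584637-118584936 on the - strand, with capitals at a GC box match (GGGCGG on the other strand) 62 bases before the start and at a full cAMP response element, TGACGTCA, 49 bases before it. The GC box was present in 35.7% and TGACGTCA in 1.79% of all windows.
Tmc7 promoter: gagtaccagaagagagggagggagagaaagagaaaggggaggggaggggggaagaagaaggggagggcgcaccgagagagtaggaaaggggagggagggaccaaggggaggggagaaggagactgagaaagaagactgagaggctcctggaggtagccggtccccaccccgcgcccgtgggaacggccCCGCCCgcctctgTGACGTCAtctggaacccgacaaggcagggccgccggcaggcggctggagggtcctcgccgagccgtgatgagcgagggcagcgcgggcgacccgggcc
All windows were searched on both strands for these 6 motifs and for the letters AAGGTCA of a nuclear receptor site, found in 4.72% of windows. The motifs were chosen after the values were seen, and a match says that these letters are present and nothing about binding.

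Tmc4, known as a voltage-dependent chloride channel of mouse taste cells, had 7.05, 5.63 and 5.57 in carotid body, against 8.04, 7.46 and 7.32 in adrenal medulla. Carotid body array 1 stood well above the other carotid body arrays and just below the lowest adrenal medulla array. The difference was -1.53 ± 0.40 (SE; limma adjusted p = 0.0288), and without carotid body array 1 it was -2.01 (adjusted p = 0.00148). The summed cortex markers, Pnmt, Xist and the Gapdh control difference were also highest on array 1 among the carotid body arrays. Their part in the Tmc4 difference was not tested. Without any other 1 array the adjusted p lay above 0.05, at 0.103 and 0.0599 without carotid body arrays 2 and 3 and 0.0902, 0.0794 and 0.0598 without adrenal medulla arrays 1, 2 and 3. After quantile normalization the difference was -1.44, with an adjusted p of 0.0539.

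Tmc6 and Tmc8, genes linked in humans to wart virus susceptibility, were not called. Tmc8 had 7.21, 7.06 and 7.19 in carotid body, against 7.18, 6.96 and 7.0 in adrenal medulla (difference 0.11), and Tmc6 differed by -0.56 (limma adjusted p = 0.0587) with no overlap. Tmc1 and Tmc2 were not called, Tmc1 averaging 3.71 in carotid body, against 3.80 in adrenal medulla, and Tmc2 4.59 in carotid body, against 4.31 in adrenal medulla. They differed by -0.09 and 0.29.

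Of 7 anoctamins, Ano4 was called. It was dim in both tissues, with 3.64, 3.23 and 3.84 in carotid body, against 4.29, 5.31 and 4.39 in adrenal medulla, and adrenal medulla array 2 stood above the rest. The difference was -1.09 ± 0.29 (SE; limma adjusted p = 0.0303). It was -0.77 (adjusted p = 0.0566) without adrenal medulla array 2, and the adjusted p was 0.0592, 0.105 and 0.0534 without carotid body array 1, carotid body array 2 and adrenal medulla array 3.

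Ano1, the calcium-activated chloride channel of smooth muscle and secretory cells, had 9.27, 9.83 and 9.16 in carotid body, against 9.40, 8.49 and 8.37 in adrenal medulla. Adrenal medulla array 1 lay inside the carotid body range, and the difference of 0.67 ± 0.30 (SE) was not past the test (limma adjusted p = 0.156). Without that array it was 0.99 (adjusted p = 0.025). Without carotid body array 2 it was 0.46, and without adrenal medulla arrays 2 and 3 it was 0.54 and 0.48 (adjusted p 0.387 to 0.398). Without carotid body arrays 1 and 3 it was 0.74 and 0.80 (adjusted p 0.191 and 0.12). This probe set of Ano1 also has the suffix _s_at, and the other probe set gave 0.20 (limma adjusted p = 0.462). Ano6, a scramblase that exposes phosphatidylserine, had 10.73, 10.95 and 10.77 in carotid body, against 10.65, 10.74 and 10.74 in adrenal medulla, a difference of 0.11. Ano8 differed by -0.51 with no overlap (limma adjusted p = 0.0603), and Ano3, Ano9 and Ano10 by -0.01 to 0.12.

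Hcn2 and Hcn3, the pacemaker channel subunits measured, gave no separation of the organs. Hcn2 had 6.89, 6.95 and 6.75 in carotid body, against 6.96, 6.89 and 6.88 in adrenal medulla, and Hcn3 had 6.43, 6.67 and 6.46 in carotid body, against 6.57, 6.65 and 6.53 in adrenal medulla. The differences were -0.05 for Hcn2 (95% interval -0.30 to 0.21) and -0.07 for Hcn3 (-0.34 to 0.21). The 5 cyclic nucleotide-gated genes, of photoreceptor and olfactory channels, differed by -0.21 to 0.31 and none was called. Cngb1 had 5.13, 4.97 and 5.12 in carotid body, against 5.19, 5.13 and 5.35 in adrenal medulla.

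Of 4 polycystin genes none was called, and their differences ran from -0.22 to 0.31. Pkd1, a large membrane receptor mutated in polycystic kidney disease, had 7.68, 7.77 and 7.88 in carotid body, against 7.23, 7.73 and 7.45 in adrenal medulla. The tissues overlapped slightly and the difference was 0.31 (95% interval -0.04 to 0.66; limma adjusted p = 0.194). After quantile normalization it was 0.45, with an adjusted p of 0.04, and with arrays centred on their median it was 0.19, with an adjusted p of 0.43.

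Of the 55 genes, 28 had a mean over the 6 arrays at or above 5.28, the median of all probe sets, and 27 lay below it. Over all 18193 genes, 12016 were at or above it. Among genes at or above it, 17.9% of the channel genes were called, against 16.9% of all genes. Ano4 was the 1 called gene among the dimmer 27. Of the 84 probe sets, 7 or 8.33% were called, 3 higher and 4 lower in carotid body, against 10.6% of all probe sets with 1 symbol.

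**Figure D4:**
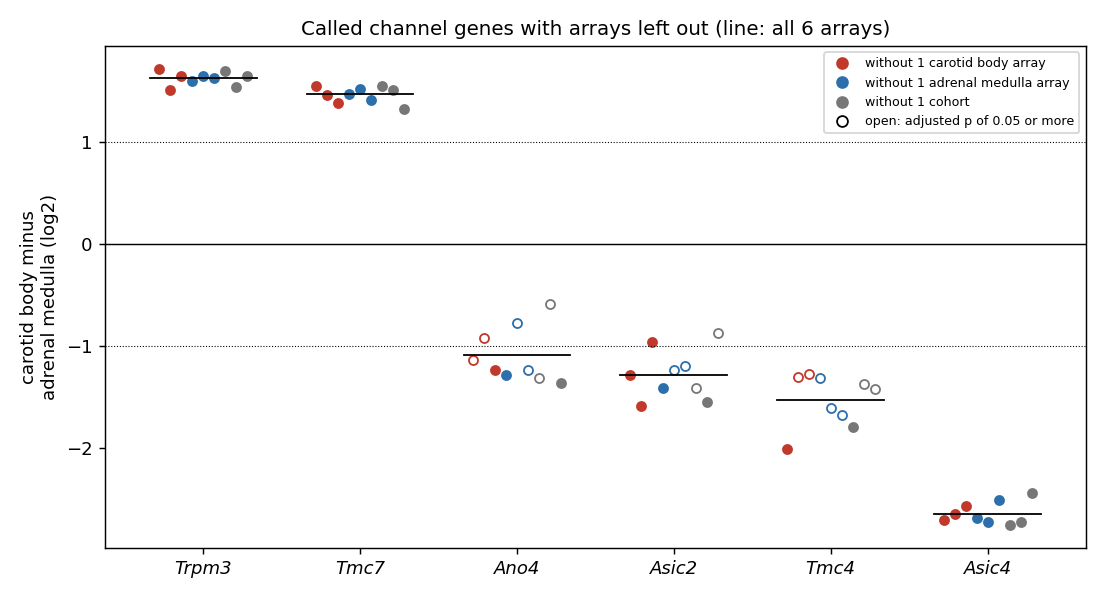
Difference of the 6 called channel genes (log2) with 1 carotid body array, 1 adrenal medulla array or 1 cohort left out; the line is the value from all arrays and open symbols have an adjusted p of 0.05 or more. Trpm3, Tmc7 and Asic4 stay filled throughout, while Ano4, Asic2 and Tmc4 have open symbols.

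Genes that work with these channels, and separate chloride, epithelial sodium and endolysosomal channels, were followed as partner genes, 53 in 8 lists. Of these, 4 were higher and 6 lower in carotid body, 18.9% against 12.0% of all genes, and the median difference was -0.09. The lists held brighter genes, with 43 of 53 at or above 5.28, the median of all probe sets, against 12016 of 18193 genes. Of all genes at or above it, 16.9% were called. Every called partner gene was among the 43, while the 18.9% is over all 53, so the 18.9% and the 16.9% have unlike bases. The called genes and their values on each array are in the plot of partner genes.

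Of 8 genes listed as mechanotransduction partners, from the hair cell complex and other membrane proteins, 2 were lower in carotid body, and 6.08% of all genes were. Tmie, a subunit that hair cells need for transduction, had 4.96, 5.26 and 5.07 in carotid body, against 7.47, 7.53 and 7.75 in adrenal medulla. Lhfpl5, which links the tip link to the Tmc channel, had 6.16, 6.85 and 6.77 in carotid body, against 7.73, 8.51 and 8.41 in adrenal medulla. Neither overlapped between tissues, and the differences were -2.49 ± 0.13 for Tmie (SE; limma adjusted p = 4.06e-05) and -1.62 ± 0.26 for Lhfpl5 (limma adjusted p = 0.00408). Averaged over its probe sets, Tmie differed by -1.50. The tip link genes Pcdh15 and Cdh23 differed by -0.26 and 0.07 and were not called.

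The relatives of the acid-sensing channels gave the largest partner difference. Scnn1b, the beta subunit of the epithelial sodium channel, had 8.41, 9.53 and 9.66 in carotid body, against 5.42, 5.65 and 5.47 in adrenal medulla. Carotid body array 1 was the lowest of its tissue and still far above adrenal medulla. The difference was 3.68 ± 0.31 (SE; limma adjusted p = 0.000264), 12.9-fold, while the alpha and gamma subunits Scnn1a and Scnn1g differed by -0.31 and 0.06 and were not called. Of the listed stomatin genes, Stoml2 differed by -0.87 (limma adjusted p = 0.00939), and Stom, Stoml1 and Stoml3 were not past the test.

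Phospholipase C feeds the TRPC channels. Plce1 was higher in carotid body at 10.43, 10.54 and 10.77, against 8.15, 8.63 and 8.88 in adrenal medulla, a difference of 2.03 ± 0.20 (SE; limma adjusted p = 0.00049). Plcb1 was lower in carotid body, at 9.42, 9.09 and 9.12, against 10.66, 10.19 and 10.13 in adrenal medulla, a difference of -1.12 ± 0.18. Both genes were separated by tissue. Plcg2 differed by 0.60 and Plcg1 by 0.43, under 2-fold, and Plcg1 had a limma adjusted p of 0.0433, of 0.0587 with the cohort as a replicate block, of 0.137 with centred arrays and of 0.0812 to 0.126 without any 1 array other than carotid body array 1. The mean of the Plcb1 probe sets differed by -0.49 (limma adjusted p = 0.0498). The store-operated genes Stim1, Stim2, Orai1, Orai2 and Orai3 differed by -0.12 to 0.45, and 0 of 5 passed the limma test (2 at an unadjusted p under 0.05).

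**Figure D5:**
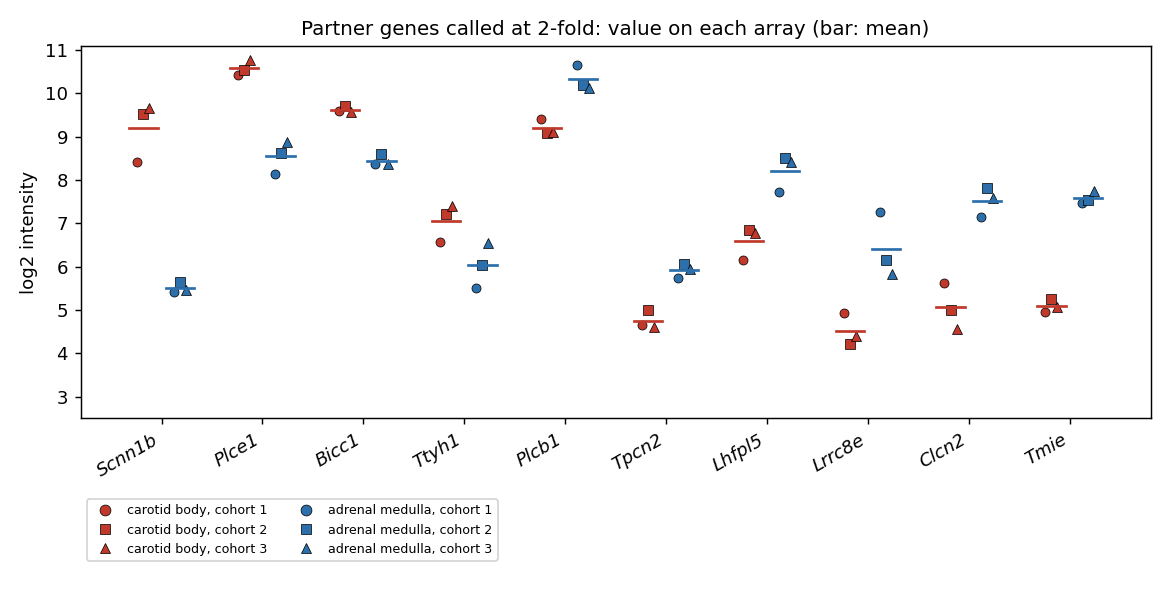
Log2 intensity of the 10 partner genes called at 2-fold on each array, carotid body in red left of adrenal medulla in blue, with cohort by symbol and the mean as a bar. Scnn1b lies at 8.41 to 9.66 in carotid body, against 5.42 to 5.65 in adrenal medulla, and Tmie at 4.96 to 5.26 in carotid body, against 7.47 to 7.75 in adrenal medulla.

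Among 11 other chloride channel genes, Clcn2 and Lrrc8e were lower and Ttyh1 higher in carotid body, where 6.08% of all genes were lower and 5.91% higher. Clcn2, a hyperpolarisation-activated chloride channel of the adrenal cortex and other tissues, had 5.62, 5.0 and 4.56 in carotid body, against 7.15, 7.81 and 7.59 in adrenal medulla, a difference of -2.45 ± 0.28 (SE; limma adjusted p = 0.001). Lrrc8e, of the volume-regulated channel, differed by -1.89, and Ttyh1 by 1.03 with a limma adjusted p of 0.0445. Ttyh1 had an adjusted p of 0.0698 with arrays centred on their median, of 0.135 and 0.0933 with carotid body arrays 2 and 3 left out in turn, and of 0.117 and 0.126 with adrenal medulla arrays 1 and 2 left out. Its mean over probe sets differed by 0.60. Among carotid body arrays Clcn2 was highest in array 1, as the summed cortex markers, Pnmt, Xist and the Gapdh control difference were. Their part in the Clcn2 difference was not tested.

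Among endolysosomal relatives, Tpcn2 differed by -1.16 and was lower in carotid body, and Tpcn1 and Mcoln1 differed by 0.90 and -0.84, under 2-fold. Bicc1, an RNA-binding protein that acts with the polycystins, was higher in carotid body by 1.18 ± 0.12 (SE; limma adjusted p = 0.000526), and Ganab, needed for polycystin folding, differed by -0.60 (0.0237). Ganab had an adjusted p of 0.0634 and 0.0776 with carotid body arrays 1 and 2 left out in turn, and of 0.0993 and 0.08 with adrenal medulla arrays 2 and 3 left out. Neither of the 2 Hcn accessory genes, Pex5l and Kcne2, was called.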

How the data were processed

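The authors deposited log2 intensities, 1 for each probe set on each of 6 Affymetrix arrays, and these were used unchanged. Affymetrix Expression Console made them, per the submitters' processing notes, while the sources used here do not give the summary method or the scaling between arrays. RNA from tissue collected over 2 days was purified on columns and labelled from the 3′ end, per the labels' protocols. That the deposited values are log2 was read from the values, 2.70 to 14.97 over all arrays. No detection calls came with them, and the number of arrays limits the precision.

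Of 45101 probe sets, 64 controls were left out. Of the 45037 others, 34945 had 1 gene symbol in the platform annotation of 2016, 932 had several and 9160 had none; a RefSeq table of GRCm38.p6 held the IDs of 34741 and changed 0 symbols. A gene is its brightest probe set over the 6 arrays. Tissues were compared by a two-sided moderated test without a block (lmFit and eBayes of limma 3.58.1, R 4.3.3). Its p-values were adjusted across the 45037 probe sets by the Benjamini-Hochberg method, and intervals are 95%. The script was tested on simulated data. An exact permutation test of 3 against 3 arrays cannot go below p = 0.1 and was not used.

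Channel genes with an adjusted p under 0.05, the brightest of each of 12 families and 26 measured genes of a fixed set are given array by array, and up to 4 genes with an adjusted p under 0.05 from each partner list; other genes were chosen after their values were seen. The members and lists were chosen with earlier results of these data known. The series states that same-numbered pools share a cohort, and deviations from the tissue means correlated at 0.22, 0.0836 and 0.163 for cohorts 1, 2 and 3 and at -0.214 to 0.101 for unlike numbers. Promoter sequences are RefSeq's in GRCm38.p6, found for 43 of 55 genes.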

Additional observations from a re-analysis of the deposited data

How the results depend on the processing

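The directions of the 10 channel genes past an adjusted p of 0.05 held in all 159 values under 16 alternatives, and 27 of these values, 25 of them with arrays left out, were no longer past it. Trpm3, Tmc7, Asic4 and Piezo1 stayed past it in each, though Trpm3 and Tmc7 were under 2-fold, at 0.54 and 0.85, with the mean of all probe sets, which left 0 genes called higher and 4 lower. With the cohort as a replicate block, 2 were higher and 4 lower, as without it, and among named genes the block changed the side of the 0.05 threshold for Trpc6 (0.0267) and Plcg1 (0.0587) alone; partners were then 4 higher and 7 lower. Leaving out 1 array or 1 cohort gave 2 to 4 genes higher and 1 to 4 lower; only Asic4 was lower without adrenal medulla array 2 or 3, and 2 genes were lower without carotid body array 2 or 3. At an adjusted p under 0.05 alone, 5 were higher and 5 lower. For partner genes these counts were 8 and 11 at an adjusted p alone, and 3 to 4 higher and 3 to 8 lower with arrays or cohorts left out. With its most variable probe set Trpm7 differed by 2.00, the reverse of -0.17; the cause was not tested. Of 361 values of the 23 other named channel genes, 10 passed an adjusted p of 0.05 in the same direction and 21 changed sign. Over all probe sets the median difference was 0.00932, and -0.106 once arrays were centred. Without detection calls, dim genes such as Ano4 cannot be placed above or below background.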
